A study of Mus musculus with 8 samples.

Results

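The miR-34/miR-449 family was followed in mouse kidneys with and without ureteral obstruction. Its members on the array were taken by exact name: mmu-miR-34a, mmu-miR-34b-5p, mmu-miR-34b-3p, mmu-miR-34c, mmu-miR-34c*, mmu-miR-449a, mmu-miR-449b and mmu-miR-449c, 8 of the 611 mouse miRNAs measured. The UUO group held 4 kidneys of ICR mice, an outbred stock, whose ureter on that side had been tied for 7 days (unilateral ureteral obstruction, UUO, a model in which the tubules dilate and the interstitium is inflamed and scarred). The control group held 4 contralateral kidneys, the unobstructed kidneys on the other side, so the controls also came from mice that underwent the ligation and not from mice without surgery. The labels give the mice no age, sex or genotype, and do not say which UUO and control kidney came from one mouse. Whole-kidney total RNA, 100 ng per sample, was labelled with Cy3 and hybridised to 1-colour Agilent miRNA arrays, 1 kidney per array.

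The family is defined by a shared seed, the stretch of bases 2 to 8 of a mature miRNA that pairs with target mRNAs, so that its members can repress overlapping sets of genes. The Mir34a gene and the joint Mir34b and Mir34c transcript are classical direct targets of the tumour suppressor p53, and mature miR-34 represses mRNAs of cell cycle and survival proteins such as cyclin-dependent kinases, Bcl2 and Sirt1. miR-34b, miR-34c and the miR-449 miRNAs are best known from multiciliated cells of the airway, oviduct and efferent ducts, where they act in the formation of motile cilia, and miR-34a is the member made most widely across tissues. In the kidney, motile cilia are not a feature of the adult mouse tubule, and miR-34a has been studied in injury and senescence of tubular cells.

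The mature sequences are shown because the seed defines the family while the other bases differ, and because a member's partner strand has a different seed. The RefSeq table used here (GRCm38.p6) held 6 of the 8 members, which are written 5′ to 3′ with the seed in capitals.
mmu-miR-34a: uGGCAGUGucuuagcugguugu
mmu-miR-34b-5p: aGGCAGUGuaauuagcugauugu
mmu-miR-449a: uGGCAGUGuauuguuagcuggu
mmu-miR-449c: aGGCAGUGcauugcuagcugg
mmu-miR-34b-3p: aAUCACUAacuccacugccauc
mmu-miR-34c* (miR-34c-3p in RefSeq): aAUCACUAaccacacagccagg
The first 4 share the seed GGCAGUG, which 4 of the 1679 mature miRNA names in the table carry (0.238%). Aligned from the 5′ end without gaps, miR-34b-5p has 11, miR-449a 15 and miR-449c 12 bases identical to miR-34a. The last 2 come from the opposite arm of the hairpin, which is usually the less abundant strand, and share the seed AUCACUA, carried by 2 names of the table (0.119%). miR-34c and miR-449b are on the array and are described here by name.

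The members come from 3 places in the mouse genome (GRCm38.p6). miR-34a is encoded on chromosome 4, plus strand, at chr4:150068473-150068494, and no annotated gene of the RefSeq table spans its hairpin apart from its own. miR-34b-5p lies on the minus strand at chr9:51103610-51103632, with miR-34b-3p at chr9:51103574-51103595 and miR-34c* at chr9:51103044-51103065. The Mir34b and Mir34c hairpins are 451 bases apart, within the spans of Btg4, an oocyte and cell cycle regulator gene, and Hoatz, a cilia and flagella associated gene. miR-449c and miR-449a lie on the plus strand at chr13:113036008-113036028 and chr13:113037549-113037570, within the span of Cdc20b, and their hairpins are 1442 bases apart.

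One obstructed kidney stood apart from its group. Over the tested miRNAs, UUO kidney 2 had a mean Pearson r of 0.964 with the 4 control arrays and of 0.887 with the other UUO arrays. Changes of the tested members are therefore given with and without it, and correlations between miRNAs over all arrays only. Unscaled brightness also differed: the 75th percentile of signal was 514 to 1595 on UUO arrays and 417 to 582 on control arrays, and 243 to 310 miRNAs were above background on UUO arrays, against 228 to 240 on control arrays. Levels are therefore given as a scaled signal, a miRNA's summed probe signal in percent of its array's 75th percentile. Changes are differences of log2 scaled signal, UUO minus control, tested with limma over 222 miRNAs with Benjamini-Hochberg adjustment and called at an adjusted p under 0.05. The labels number the kidneys of a group but do not say that each came from its own mouse, so p-values measure the spread between these samples.

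Signal above background came from the guide strands of the miR-34 genes. A miRNA was above background on an array where Agilent's mark was set on over 50% of the spots of at least 1 of its probes. miR-34a, miR-34b-5p and miR-34c were above background on all 4 UUO arrays and all 4 control arrays, and these 3 of 8 members passed the filter on low values. miR-34b-3p, miR-449a, miR-449b and miR-449c were not well above background on any of the 8 arrays, so the miR-449 branch and the partner strand of miR-34b could not be compared between the groups. Their summed signals before scaling did not exceed 10.03 scanner units on UUO arrays, a value of miR-449a, or 2.71 units on control arrays. miR-34c*, the partner strand of miR-34c, was above background on UUO kidney 4 alone, through 1 of its probes, which read 17.4 scanner units there. Over both probes miR-34c* summed to 2.35 to 19.7 units on UUO arrays and 0.25 to 8.88 units on control arrays before scaling.

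**Figure D1:**
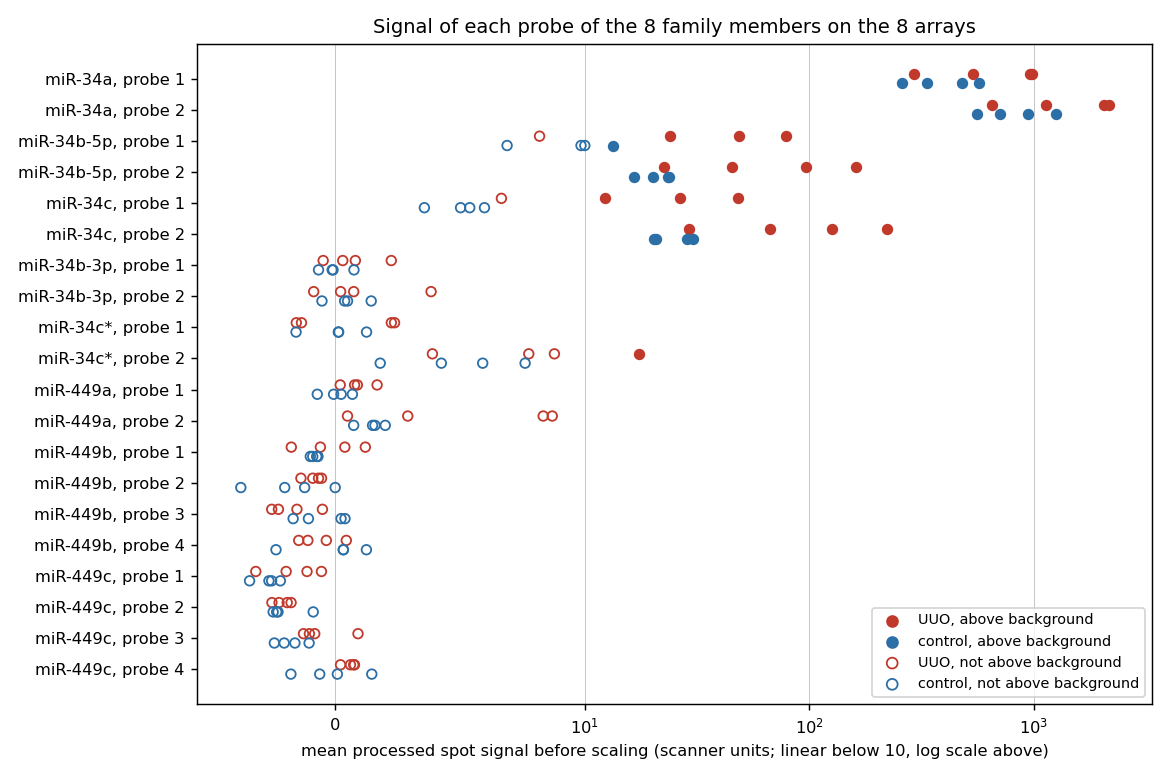
Mean processed signal of every probe of the 8 members before scaling, in scanner units (horizontal axis, linear below 10 and logarithmic above), with UUO arrays in red above control arrays in blue and filled points where the probe was above background. Probes of miR-34a lie far above background on all 8 arrays, those of miR-34b-5p and miR-34c reach it with at least 1 probe on all 8, and of the 14 probes of the other 5 members only 1 miR-34c* probe does so, on 1 UUO array.

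miR-34a, the p53 target from chromosome 4, was not called. Its scaled signal was 243%, 183%, 217% and 196% in UUO kidneys 1 to 4, against 203%, 196%, 330% and 244% in control kidneys 1 to 4. UUO kidney 2 was the lowest and control kidney 3 the highest of the 8, and the groups overlapped. The means were 210 ± 26.1% in UUO kidneys and 243 ± 61.6% in control kidneys (SD, n = 4 each). The log2 change was -0.19 ± 0.20 (SE), a fold of 0.877 with a 95% interval of 0.639 to 1.20, at limma adjusted p = 0.531. It held place 120 of 222 when the miRNAs were ordered from the most raised down, near the middle, and the median change of all tested miRNAs was -0.14. The interval of the fold leaves room for a moderate fall and for a small rise.

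The 2 probes of miR-34a gave like changes, -0.18 and -0.22 on the log2 scale. Their 10 spots per array spread by 5.16% to 15.9% (CV). Both probes were above background on every array, which held for no other member. Without UUO kidney 2 its change was -0.13 ± 0.20 (SE, adjusted p = 0.633). Before scaling, its summed signal was 1674, 942, 3042 and 3128 scanner units on UUO arrays, against 1041, 818, 1822 and 1423 units on control arrays. On that scale its change was 0.69, beside 0.74 for the median of all tested miRNAs. Scaling moves all miRNAs of an array alike, and miR-34a lay at -0.049 from that median with and without it.

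miR-34c, the seed-bearing strand from the chromosome 9 pair, had the largest positive difference of the 3 tested members and did not pass the test over all 8 arrays. Its scaled signal was 11.5%, 6.95%, 10.9% and 17.0% in UUO kidneys 1 to 4, against 4.74%, 8.31%, 6.50% and 4.36% in control kidneys 1 to 4. UUO kidneys 1, 3 and 4 lay above every control kidney, and the groups overlapped because UUO kidney 2 fell below control kidney 2. The means were 11.6 ± 4.14% in UUO kidneys and 5.98 ± 1.81% in control kidneys (SD, n = 4 each). The log2 change was 0.93 ± 0.31 (SE), a fold of 1.91 with a 95% interval of 1.16 to 3.15, at limma adjusted p = 0.0788. It was the change at place 20 of 222 from the top.

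miR-34b-5p, from the neighbouring hairpin, showed nearly the same pattern. Its scaled signal was 10.05%, 6.00%, 10.3% and 15.03% in UUO kidneys 1 to 4, against 4.57%, 8.02%, 6.73% and 5.19% in control kidneys 1 to 4. As for miR-34c, UUO kidney 4 was the highest, and UUO kidney 2 lay among the control kidneys. The means were 10.4 ± 3.69% in UUO kidneys and 6.13 ± 1.55% in control kidneys (SD, n = 4 each). The log2 change was 0.72 ± 0.30 (SE), a fold of 1.64 with a 95% interval of 1.01 to 2.67, at limma adjusted p = 0.127, and it held place 27 of 222.

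**Figure D2:**
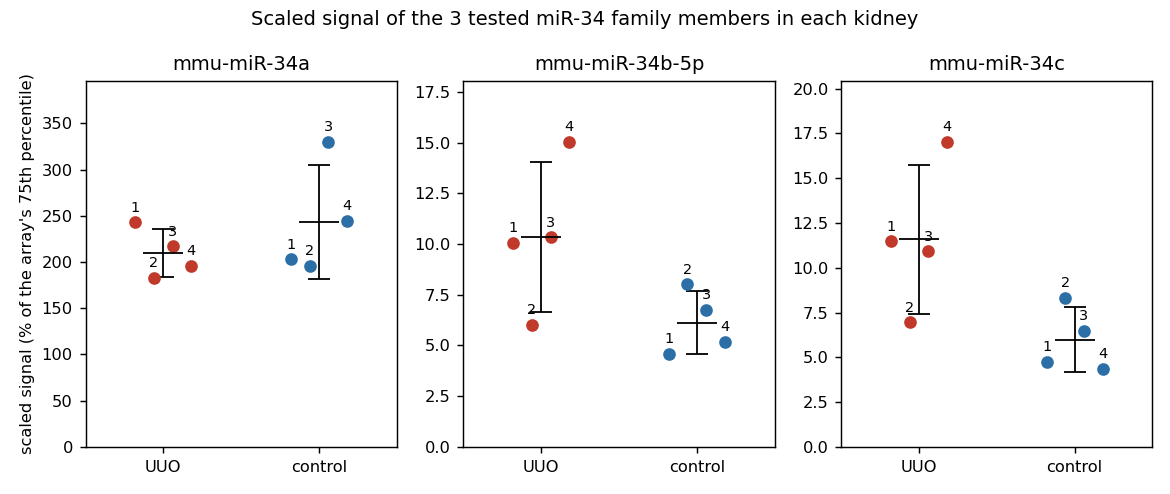
Scaled signal of miR-34a, miR-34b-5p and miR-34c (vertical axis, percent of the array's 75th percentile) in 4 UUO kidneys in red and 4 control kidneys in blue, each point a kidney with its number and each bar the mean ± SD. For miR-34c, UUO kidneys 1, 3 and 4 sit at 10.9% to 17.0% and UUO kidney 2 at 6.95%, inside the control range.

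None of the 3 tested members was called by limma over the 8 arrays, and 2 of them, miR-34c and miR-34b-5p, had an unadjusted p under 0.05. Over all miRNAs, 33 of the 222 tested miRNAs (14.9%) were called, 3 higher and 30 lower in UUO kidneys, and 81 had an unadjusted p under 0.05. Without scaling limma called 3, all of them higher. The groups overlapped for each of the 3 members, while 51 miRNAs (23.0%) had groups that did not overlap. Without UUO kidney 2, miR-34c and miR-34b-5p both passed. The miR-34c change was then 1.15 ± 0.27 (SE), a fold of 2.23 at limma adjusted p = 0.0120. The miR-34b-5p change was 0.96 ± 0.24 (SE), a fold of 1.94 at limma adjusted p = 0.0152. In that fit 113 miRNAs (50.9%) were called in either direction and 46 (20.7%) were higher in UUO kidneys. Since the fit leaves out the UUO kidney nearest to the controls, its calls hold for 3 kidneys chosen after their values were seen.

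All 8 arrays lay on 1 slide in 2 rows, with kidneys 1 and 2 of both groups in row 1 and kidneys 3 and 4 of both groups in row 2. The miR-34c change was 0.51 within row 1 and 1.36 within row 2, and that of miR-34b-5p was 0.36 and 1.08. The miR-34a change was 0.081 within row 1 and -0.46 within row 2, and limma called none of these 6 values. Of the 222 tested miRNAs it called 0 within row 1 and 69 within row 2. Background correction turned the sign of the dim pair: with limma's normexp and its offset of 50 scanner units, which is of the order of these signals, miR-34c changed by -0.53 and miR-34b-5p by -0.60, and the median of all tested miRNAs by -0.62. Relative to that median the 2 changes were 0.092 and 0.019. Without the offset, miR-34c changed by -0.17 and miR-34b-5p by -0.32, beside a median of -0.57, so that they lay 0.40 and 0.25 above it. In the scaled signal they lay 1.07 and 0.86 above the median of all tested miRNAs. limma called neither member with normexp, where it called 0 of the 222 tested miRNAs with or without the offset. miR-34a changed by -0.18 with normexp and by -0.19 without the offset, and was not called. It then lay 0.45 and 0.38 above the median of all tested miRNAs, so its place near the middle depends on the background correction.

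Both dim members rest mainly on 1 probe each. The brighter miR-34c probe was above background on all 8 arrays, read 29.1 to 223 units on UUO arrays and 20.3 to 30.5 units on control arrays before scaling, and gave a change of 0.92. The dimmer miR-34c probe was above background on UUO kidneys 1, 3 and 4 and on no control array. It read 6.67 to 48.3 units on UUO arrays and 3.58 to 5.99 units on control arrays before scaling, and was not tested by itself. Scaled, it lay under the floor, to which lower values were set, on every array but that of UUO kidney 4. No lower bound on its change in scaled signal is therefore given. The brighter miR-34b-5p probe changed by 0.72 and the dimmer one by 0.57, and the dimmer one was above background on 3 UUO arrays and 1 control array. Some values of the dimmer probe, in both groups, were set to the floor, so its 0.57 depends on the floor. Before scaling, miR-34c summed to 79.0, 35.8, 153 and 271 units on UUO arrays, against 24.3, 34.7, 35.9 and 25.4 units on control arrays.

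The 2 loci were then compared within each array, where any common scaling cancels. The log2 difference miR-34c minus miR-34a was -4.40, -4.72, -4.31 and -3.53 in UUO kidneys 1 to 4, against -5.42, -4.56, -5.67 and -5.81 in control kidneys 1 to 4. The sign of these values cannot be read as a difference in amount, since the 2 miRNAs are read by different probes. Control kidney 2 lay among the UUO kidneys, and the other 3 control kidneys lay below all of them. The mean difference was higher by 1.12 in UUO kidneys, at a two-sided exact permutation p = 0.0571. The exact test over 70 assignments cannot give less than 0.0286 here, and after adjustment over the 3 pairs of tested members the p was 0.0571.

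miR-34b-5p minus miR-34a was -4.59, -4.93, -4.39 and -3.71 in UUO kidneys 1 to 4, against -5.47, -4.61, -5.61 and -5.56 in control kidneys 1 to 4. Control kidney 2 again lay among the UUO kidneys. The mean was higher by 0.91 in UUO kidneys, at a two-sided exact permutation p = 0.0571 before and after adjustment. The third pair, miR-34c minus miR-34b-5p, compares the neighbours with each other. It was 0.19, 0.21, 0.079 and 0.18 in UUO kidneys 1 to 4, against 0.052, 0.052, -0.052 and -0.25 in control kidneys 1 to 4. The groups did not overlap, the mean was higher by 0.21 in UUO kidneys, and the two-sided exact permutation p was 0.0286, or 0.0571 after adjustment over 3 pairs. The direction turned, to -0.12, when the probes' log2 values were averaged in place of summing their signals. That setting applies the floor to each probe. The dimmer miR-34c probe lay at the floor in every kidney but UUO kidney 4, so its change of 0.13 depends on the floor. No pair passed after adjustment, so a difference in response between the chromosome 4 and chromosome 9 genes was not shown, and these p-values do not show that they respond alike.

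Within slide row 1, miR-34c minus miR-34a was higher by 0.43 in UUO kidneys, and within row 2 by 1.82, with 2 kidneys per group in each row. Leaving out control kidney 2 made it 1.39, at an exact permutation p of 0.0429 after adjustment. That kidney was the control kidney among the UUO kidneys, so the groups no longer overlap without it. The unadjusted p is then the smallest the test can give, and follows from the kidney left out. Leaving out UUO kidney 2 gave 1.28, at an exact permutation p of 0.0857 after adjustment. With normexp the sign turned, to -0.35 for miR-34c minus miR-34a and -0.43 for miR-34b-5p minus miR-34a. Without the offset they were 0.018 and -0.13.

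**Figure D3:**
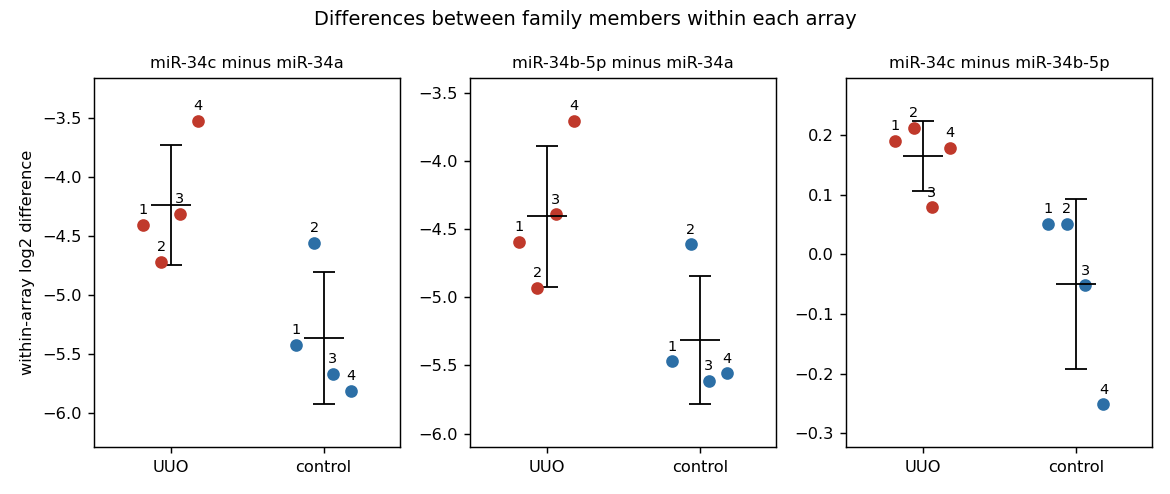
Within-array log2 differences between the tested members (vertical axes) in 4 UUO kidneys in red and 4 control kidneys in blue, each point a kidney with its number and each bar the mean ± SD. Control kidney 2 stands with the UUO kidneys in both differences that involve miR-34a, and the groups are apart for miR-34c minus miR-34b-5p, over a range of under 0.5 log2 units.

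Across the 8 arrays, miR-34c and miR-34b-5p varied together. Their log2 scaled signals had a Pearson r of 0.981, and 0.974 after each group's mean was taken out, and each was the miRNA most like the other among all those tested. miR-34a had an r of -0.23 with miR-34c and of -0.13 with miR-34b-5p. These are descriptions over 8 arrays, in which both members of a pair share the array and its scaling. Whether the probes of miR-34c and miR-34b-5p also read each other's miRNA was not tested, so their values may not be independent readings.

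Other miRNAs most like each member were listed by the same measure. For miR-34c they were miR-224 (r = 0.966), miR-17* (0.960), miR-135a* (0.925) and miR-24-2* (0.924), and of these miR-135a* alone was called over 8 arrays, with a log2 change of 1.80 at limma adjusted p = 0.0335. After each group's mean was taken out, these 4 had an r of 0.823 to 0.948. For miR-34b-5p they were miR-24-2* (0.955), miR-17* (0.941), miR-27a (0.934) and miR-155 (0.927), a miRNA known from activated leukocytes. For miR-34a they were miR-23b (0.897), miR-361 (0.892), miR-340-3p (0.864), miR-204 (0.807) and let-7d (0.799), none of them called.

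Leukocyte miRNAs were high in the same UUO kidneys as the chromosome 9 pair. Of 6 leukocyte markers on the array, such as miR-223 of myeloid cells and miR-142-3p of blood cells in general, 4 were tested. limma called none of them over 8 arrays and 2 had an unadjusted p under 0.05, with a median log2 change of 1.38, against -0.14 for all tested miRNAs. Their summed scaled level was 1.79 to 7.22 times the array's 75th percentile in UUO kidneys and 1.84 to 2.55 times in control kidneys. UUO kidney 2 was the one at 1.79, and the other 3 UUO kidneys were at 6.26 or above. Without UUO kidney 2, left out after its values were seen, all 4 tested markers rose, in a fit that called 20.7% of all miRNAs higher. Of 5 kidney tubule markers, all tested, 2 fell: miR-192 fell by 1.27 and miR-194 fell by 1.31 on the log2 scale (limma adjusted p = 0.0213 and 0.0172), where 30 of the 222 tested miRNAs (13.5%) were called lower. Without scaling these changes were -0.39 and -0.43, beside a median of 0.74 for all tested miRNAs, and limma called none lower. Of the other tubule markers, in the scaled signal over 8 arrays, miR-10b changed by -0.48, miR-204 by -0.12 and miR-10a by 0.0043, and limma called none of them. Without UUO kidney 2, limma called 3 of the 5 lower, where 30.2% of all tested miRNAs were called lower. miR-10b was then among them (-0.55, limma adjusted p = 0.0120). The summed level of all 5 tubule markers was 17.7 to 22.5 times the 75th percentile in UUO kidneys and 28.5 to 33.0 times in control kidneys. The part of these shifts in the miR-34b and miR-34c values was not tested. In whole-kidney RNA, fewer or more cells of a type and less or more RNA per cell cannot be told apart.

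The markers of ciliated cells on the array are themselves the chromosome 9 and miR-449 members. Of these 7, miR-34b-5p and miR-34c were tested, the miR-449 miRNAs were not above background on any of the 8 arrays, and miR-34c* was so on 1. The smooth muscle markers were miR-143 and miR-145, of which miR-143 was tested and changed by 0.10, without a call.

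Other miRNAs linked to p53 were taken as a list of 16, mostly from work on human cells. The array held 14 of them and 11 were tested: limma called none higher, also at an unadjusted p under 0.05, and 5 fell, against 13.5% called lower of all tested miRNAs. The median change of the list was -0.01, beside -0.14 for all tested miRNAs. Those that fell were miR-192 and miR-194, which are in the tubule list too and are known as p53 targets in human cells, miR-107, miR-203 and miR-22. On the log2 scale miR-107 fell by 0.96, miR-203, an epithelial miRNA, fell by 0.93 and miR-22 fell by 0.61. Without scaling, where the median of all tested miRNAs was 0.74, miR-107 changed by -0.078, miR-203 by -0.046 and miR-22 by 0.27. With normexp, miR-22 lay 0.13 above the median of all tested miRNAs, and it lay at -0.47 from it in the scaled signal. Without UUO kidney 2, limma called 5 lower and none higher, with 2 higher at an unadjusted p under 0.05, where 30.2% of all tested miRNAs were called lower.

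**Figure D4:**
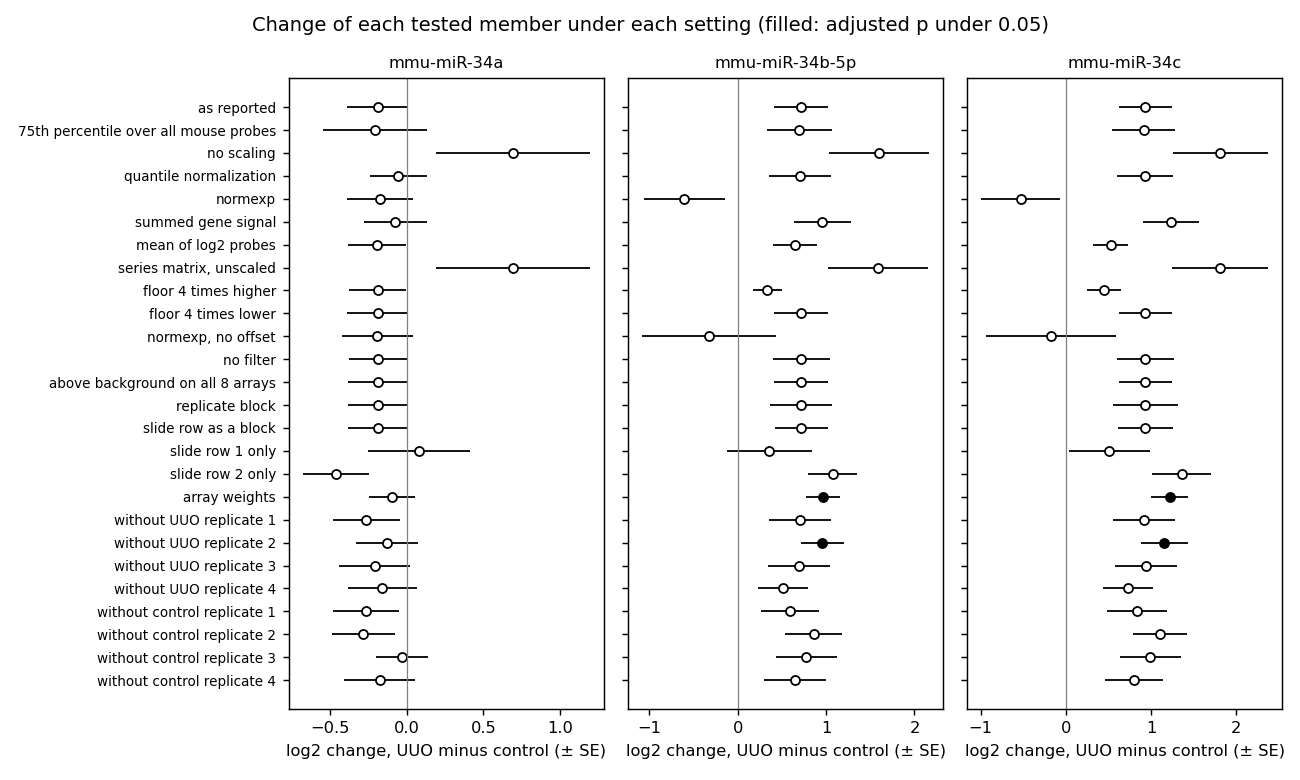
Log2 change of miR-34a, miR-34b-5p and miR-34c, UUO minus control (horizontal axes), under each processing setting or left-out kidney (rows), with bars for ± SE and filled points where the adjusted p was under 0.05. miR-34b-5p and miR-34c are filled with array weights and without UUO kidney 2 and turn negative in both normexp settings, and miR-34a stays unfilled throughout, on both sides of 0. Of 222 tested miRNAs, limma called 138 with array weights (54 higher) and 113 without UUO kidney 2 (46 higher).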

How the data were processed

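The deposited scanner files hold one array each. They name Agilent Feature Extraction 10.7.3.1 per the file headers, while the submitters' processing notes give 10.1.1. Their processed intensity (background-subtracted by the scanner software, per the file headers) was used, with the deposited marks for outlier spots, controls and spots well above background. The deposited series matrix held the same intensity values (largest difference 0). Each of the 8 arrays had 13715 spots, 13000 of them not controls, and 10 or 5 spots per member probe. The number of arrays limits the precision.

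From these values, outlier spots (2.34% to 3.52% per array) were dropped and the spots of a probe averaged. Scaling divided the probe values of an array by the 75th percentile of the 371 probes that were above background on all 8. Probes of a miRNA were summed, values under a floor of 0.0213 were set to it, and log2 was taken. A miRNA was tested where every array of 1 group or of both had it above background, with limma 3.58.1 in R 4.3.3 (lmFit, eBayes, Benjamini-Hochberg over 222 miRNAs). Pairs of members were compared by exact permutation. limma was also run on simulated data with added changes and independent noise, without an outlying kidney, slide rows or shared mice. No result of that run is given here.

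Alternatives were another scaling, none, quantile, normexp (on the deposited median spot and local background intensity; the mean signal was not used here), summed gene signal, other floors and filters, slide row, array weights and left-out kidneys. Normexp without offset, and scalings without UUO kidney 2, were chosen after seeing the data. Named miRNAs were the 8 members, the 5 most like each tested member by Pearson r, and the called members of the p53 list, besides examples from the marker lists. Members and lists were chosen with earlier results of these data known. No pairing was used, and the tests treat the 8 kidneys as independent, which the labels do not settle. Same-numbered kidneys did not all deviate together (correlations of their deviations from -0.35 to 0.62). Differently numbered kidneys were not compared in this way, so these values cannot decide whether the kidneys are paired. Sequences are from RefSeq (GRCm38.p6), and array coordinates were not used.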

Additional observations from a re-analysis of the deposited data

Results flagged for a closer look

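One value stood far from its group. In control kidneys, miR-34b-5p minus miR-34a was -4.61 in kidney 2 and -5.47 to -5.61 in the other 3, so that the gap took 0.857 of the group's range. It was 1 of 12 groups of 4 kidneys looked at, and chance flags about 1 in 20.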

How the results depend on the processing

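The count of called miRNAs, 33 over 8 arrays, moved with the processing. limma called 0 with the 75th percentile taken over all mouse probes (56 at an unadjusted p under 0.05), with normexp (54), with normexp without offset (40), within slide row 1 (1) and with a replicate block (67). It called 3 without scaling, with quantile normalization, with summed gene signal and from the unscaled series matrix, 17 with no filter on low values, 69 within slide row 2, 138 with array weights, and 0 to 113 with 1 kidney left out. Same-numbered kidneys share a number and a slide row, and the labels do not say whether they share a mouse. The replicate block changed no call for the 3 members (miR-34c 0.93, adjusted p = 0.178). The miR-34a change turned to 0.69 without scaling and from the series matrix, and to 0.081 within slide row 1. Without scaling and without UUO kidney 2 it was 1.05 (adjusted p = 0.0401), 0.040 above the median of all tested miRNAs, in a fit that called 115 of 222. miR-34b-5p changed by -0.60 with normexp, by -0.32 with normexp without offset (medians of all tested miRNAs -0.62 and -0.57) and by 0.97 with array weights (adjusted p = 0.00277), and by 0.51 to 0.96 with 1 kidney left out. miR-34c changed by -0.53, -0.17 and 1.22 (adjusted p = 0.00189) in the same 3 settings, and by 0.72 to 1.15 with 1 kidney left out. Without scaling miR-34b-5p changed by 1.60 and miR-34c by 1.81, with the floor 4 times higher by 0.34 and 0.45, and with the mean of log2 probes miR-34c changed by 0.52, none of them called. With normexp and without UUO kidney 2, miR-34b-5p changed by -0.67 and miR-34c by -0.59. miR-34c minus miR-34a was -0.35 with normexp, 0.018 without its offset and 0.88 to 1.39 with 1 kidney left out. miR-34b-5p minus miR-34a was -0.43 with normexp and -0.13 without its offset. miR-34c minus miR-34b-5p was -0.12 as a mean of log2 probes and 0.15 to 0.25 with 1 kidney left out, at adjusted p = 0.0429 by exact permutation without control kidney 2. Requiring all probes above background left 1 member detected on every array, not 3. The causes of these changes were not tested. The dim probes of miR-34b-5p and miR-34c, not above background on at least 3 of 4 control arrays, limit what their changes can show.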
